A study of Mus musculus with 4 samples.

Results

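Claudins are four-pass membrane proteins that zip neighbouring membranes together at tight junctions and decide which ions pass between them. Occludin and tricellulin are their MARVEL-domain companions, at bicellular and three-cell contacts respectively, and the Tjp (zonula occludens) scaffolds tie the strands to actin. In the brain such strands are best known from the lamellae of the myelin sheath, which CLDN11 seals, and from the blood vessel wall, which CLDN5 seals.

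A set of 9 such genes, Cldn11, Cldn19, Cldn12, Cldn10, Cldn1, Cldn5, Ocln, Marveld2 and Tjp1, was examined among 22608 genes of a count table. The set was chosen by the knockdown values of its members, since Cldn19 and Cldn11 were lower in the knockdown. Differences between the groups in the 9 genes are therefore given as a description, with a standard error (SE) and no test. Mouse neural stem cells (NSCs) from embryonic cortex of CD-1 mice were used, all grown with EGF and FGF at 20 ng/ml each, transduced with a pLKO.1 lentivirus, selected with puromycin and given CNTF at 20 ng/ml and T3 at 40 ng/ml for 3 days, a protocol that yields oligodendrocyte precursor cells (OPCs). The 2 control libraries carried a hairpin against luciferase and the 2 knockdown libraries a hairpin against the long non-coding RNA lnc-OPC, and the column names show 1 and the same lnc-OPC hairpin in both. The labels call the repeats biological replicates without naming separate cultures, so errors cover only the spread between these libraries. The level of lnc-OPC was not analysed here, and the groups rest on the labels.

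Reads counted in genes ranged from 46144779 to 50098577 per library. Over the 14090 genes that passed the filter on low counts, Pearson's r of log2 CPM (reads per 1000000 of a library's TMM-adjusted size) was 0.995 for the pair of controls and 0.994 for the knockdown pair, and 0.983 to 0.984 across groups. This r is over genes, which are not independent replicates. A gene was called where edgeR's quasi-likelihood F test gave a Benjamini-Hochberg adjusted p below 0.05, which held for 46.7% of these genes, 23.5% higher and 23.3% lower in the knockdown. A call was thus a common outcome in this table, and 5 of the 9 genes passed it. Since the same comparison chose the set, nothing is read from that count.

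The sequences before the transcription starts of the 3 claudins that make up nearly all claudin reads are shown to let the genes be compared at the sequence level. Each is the 250 bases upstream of the first start that RefSeq lists on build GRCm38.p6 (15 starts were listed for the 9 genes), printed 5′ to 3′ on the gene's own strand, with CCAAT boxes (CCAAT) and GC boxes (GGGCGG) on either strand in capitals. The windows are chr3:31149670-31149919 on the plus strand for Cldn11, chr4:119255191-119255440 on the plus strand for Cldn19 and chr5:5514977-5515226 on the minus strand for Cldn12. The submitters' processing notes name mm9 for the deposited data, whereas the study's methods name mm10 for read mapping, so these positions belong to the sequences alone.
Cldn11: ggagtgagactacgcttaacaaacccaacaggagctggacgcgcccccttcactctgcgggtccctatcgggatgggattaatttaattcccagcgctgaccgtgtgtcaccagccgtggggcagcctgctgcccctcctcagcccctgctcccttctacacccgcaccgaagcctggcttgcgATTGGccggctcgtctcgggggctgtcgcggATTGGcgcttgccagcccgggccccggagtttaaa
Cldn19: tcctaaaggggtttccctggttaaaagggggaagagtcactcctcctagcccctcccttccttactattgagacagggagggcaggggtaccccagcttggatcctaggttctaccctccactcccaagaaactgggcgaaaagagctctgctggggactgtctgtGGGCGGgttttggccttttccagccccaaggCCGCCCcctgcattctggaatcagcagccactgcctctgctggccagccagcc
Cldn12: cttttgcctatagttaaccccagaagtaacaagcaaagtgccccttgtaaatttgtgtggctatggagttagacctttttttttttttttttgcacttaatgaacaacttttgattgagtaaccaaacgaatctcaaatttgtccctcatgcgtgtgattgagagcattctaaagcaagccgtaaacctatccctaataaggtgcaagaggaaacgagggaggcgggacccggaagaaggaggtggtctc

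The 3 windows printed differed in composition, but that of Cldn12 depends on the start chosen. That of Cldn11 held 63.6% G and C and 19 CpG dinucleotides, that of Cldn19 59.2% and 3, and that of Cldn12 42.0% and 6, where the median of 32851 listed windows was 52.4% and 6. At the 2 further starts listed for Cldn12 the window held 58.8% and 16 CpG dinucleotides, and 65.2% and 20, each with 1 GC box and 1 CCAAT box, so the absence of boxes applies to its first listed start alone. Cldn11 held 2 CCAAT boxes, both on the opposite strand, with first bases at -66 and -35 from the start. A CCAAT box was present in 33.8% of all windows. Cldn19 held 2 GC boxes, at -84 and -53, an element present in 32.7% of all windows. Searched on both strands, none of the Sox word ACAAAG (16.5% of all windows), the E-box CANNTG (66.2%), the Myrf words CTGGCAC (4.19%) and CTGGTAC (1.83%), the nuclear receptor word AGGTCA (14.0%) or the TATA box TATAAA (12.4%) had a match in the Cldn11, Cldn19 or Cldn12 window. Matches did not overlap one another. They are a description of these letters and not of factor binding.

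Cldn11 encodes the claudin of central myelin, whose strands join successive turns of the oligodendrocyte membrane. Its level was 133.5 and 136.5 CPM in the controls and 74.9 and 75.3 CPM in the knockdown libraries. The controls lay above both knockdown libraries by far more than either pair differed within itself. The means were 135 ± 2.11 and 75.1 ± 0.303 CPM (SD, n = 2), 1.80-fold lower in the knockdown, a log2 difference of -0.85 (SE 0.04).

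Cldn19, known as a claudin of Schwann cell junctions and of the kidney tubule, differed more. It stood at 17.45 and 17.61 CPM in the controls and at 3.08 and 2.91 CPM in the knockdown libraries. The groups were far apart and the libraries within each nearly equal. The means were 17.5 ± 0.119 and 3.00 ± 0.119 CPM (SD, n = 2), 5.85-fold lower, a log2 difference of -2.55 (SE 0.11). The reads behind these values numbered 876 and 823 in the controls and 151 and 144 in the knockdown libraries. An antisense gene of the GENCODE M21 annotation, Gm12927, shares exon bases with Cldn19, and the library kit did not mark strand, so reads of the pair cannot be told apart. For the other 8 genes GENCODE M21 listed no gene sharing exon bases.

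Cldn12, an atypical claudin that lacks the PDZ-binding tail by which most claudins hold the Tjp scaffolds, went the opposite way. Its level was 112.2 and 114.5 CPM in the controls and 198.3 and 200.1 CPM in the knockdown libraries. Both knockdown libraries lay above both controls. The means were 113 ± 1.62 and 199 ± 1.28 CPM (SD, n = 2), 1.76-fold higher, a log2 difference of 0.81 (SE 0.03).

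**Figure D1:**
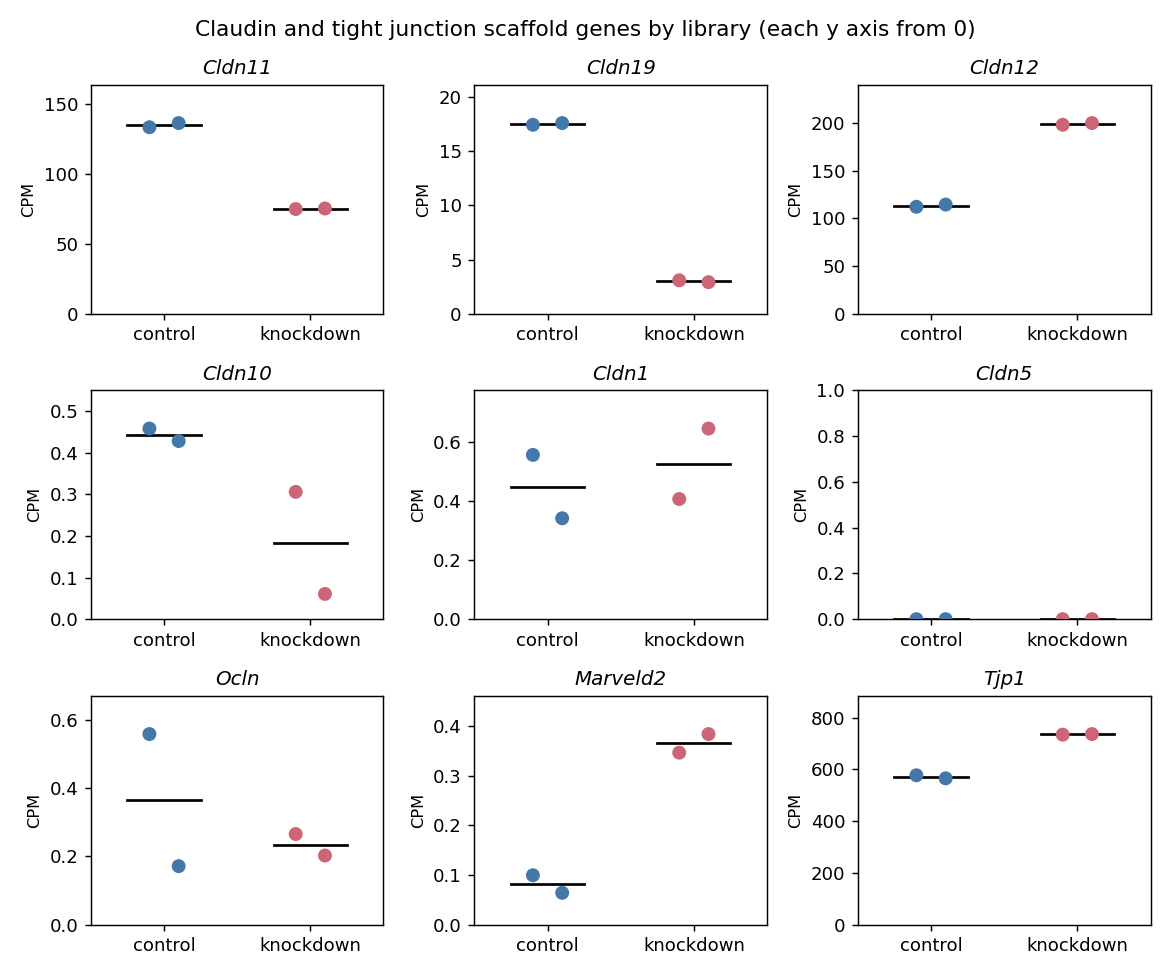
Level of each of the 9 genes in every library, in CPM on linear axes that start at 0. Points are libraries (control blue, knockdown red) and bars are means of 2 libraries. Cldn11 and Cldn19 sit lower and Cldn12 and Tjp1 higher in both knockdown libraries, Cldn5 is at 0 in all 4, and Cldn1 and Ocln overlap between the groups.

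The total of claudin reads was only slightly higher in the knockdown libraries, but its makeup differed. Summed over 25 rows with a claudin symbol, the level was 271 and 275 CPM in the controls and 283 and 285 CPM in the knockdown libraries. Cldn11 supplied 49.3% of these reads (95% Clopper-Pearson interval 48.4 to 50.1) and 49.6% (48.7 to 50.5) in the controls, against 26.5% (25.7 to 27.2) and 26.4% (25.7 to 27.2) in the knockdown libraries. Its share was lower in both knockdown libraries than in either control, and as Cldn11 was chosen for this decrease, the intervals describe counting error and test nothing. The share of Cldn12 was 41.4% (40.6 to 42.2) and 41.6% (40.7 to 42.5) in the controls and 70.05% (69.3 to 70.8) and 70.2% (69.4 to 70.9) in the knockdown libraries. Cldn12 reads equalled 0.84 and 0.839 times the Cldn11 reads in the controls and 2.65 and 2.66 times in the knockdown libraries. Cldn11 led the claudin reads in the controls and Cldn12 in the knockdown libraries.

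Cldn19 made up 6.44% (6.03 to 6.86) and 6.40% (5.98 to 6.84) of claudin reads in the controls and 1.09% (0.922 to 1.275) and 1.02% (0.862 to 1.201) in the knockdown libraries. Cldn11 and Cldn19 were both lower, but not in step. There were 7.65 and 7.75 Cldn11 reads for each Cldn19 read in the controls and 24.3 and 25.9 in the knockdown libraries. Among the other 22 claudin rows, Cldn2, a pore-forming claudin of leaky epithelia, gave 1.22% to 1.53% of claudin reads and the remaining 21 rows together 1.045% to 1.352%. All intervals cover counting error only.

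**Figure D2:**
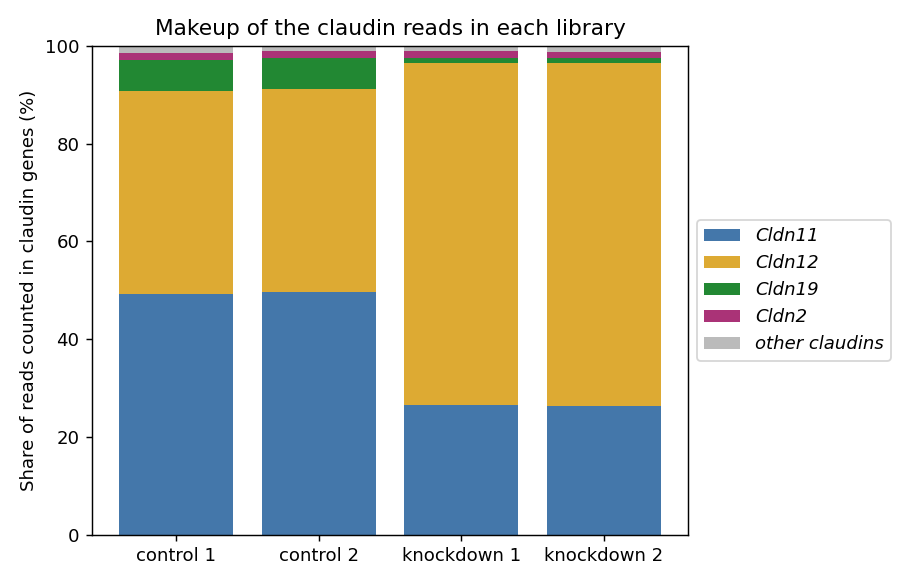
Share of reads counted in claudin genes, in percent, for each of the 4 libraries. The segments are Cldn11, Cldn12, Cldn19, Cldn2 and the sum of the other claudin rows. Cldn11 fills 49.3% and 49.6% of the control bars and 26.5% and 26.4% of the knockdown bars, and Cldn12 70.05% and 70.2% of the latter.

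Tjp1 (ZO-1), the multi-PDZ scaffold under tight junctions that also sits at adherens and gap junctions, was the member with the most reads. It stood at 577.5 and 565.7 CPM in the controls and 734.6 and 736.9 CPM in the knockdown libraries. Both knockdown libraries were above both controls. The means were 572 ± 8.30 and 736 ± 1.63 CPM (SD, n = 2), 1.29-fold higher, a log2 difference of 0.36 (SE 0.03).

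The remaining genes were near the limit of detection, where 1 read is worth about 0.02 CPM. Marveld2, which encodes tricellulin, the protein of three-cell corners, had 5 and 3 reads in the controls and 17 and 19 in the knockdown libraries. The knockdown libraries were higher, at 0.365 ± 0.0265 against 0.0819 ± 0.0250 CPM (SD, n = 2), with a ratio of 4.43 (95% exact counting interval 2.025 to 11.03). It passed the filter on low counts through the knockdown libraries alone, so a difference was built into its passing. Cldn10, an ion channel-forming claudin that in the mouse brain is known from astrocytes, had 23 and 20 reads in the controls and 15 and 3 in the knockdown libraries. The groups did not overlap, but the knockdown libraries differed widely from each other. Both controls and knockdown replicate 1 exceeded the filter's minimum count of 10, and knockdown replicate 2 did not. Its passing thus leaned on the group where it was higher, and the interval that follows covers counting error only. The ratio of knockdown to control was 0.412 (0.224 to 0.730), and the log2 difference of -1.27 (SE 0.58) became -0.53 without knockdown replicate 2 and -2.82 without knockdown replicate 1.

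Cldn1, the main claudin of the skin barrier, had 28 and 16 reads in the controls and 20 and 32 in the knockdown libraries. The groups overlapped, with a ratio of 1.16 (0.764 to 1.78). Ocln, occludin, had 28 and 8 reads in the controls and 13 and 10 in the knockdown libraries, again overlapping, with a ratio of 0.629 (0.356 to 1.09). Its log2 difference of -0.65 (SE 0.58) turned to 0.44 without control replicate 1, the library with 28 reads. For these genes no difference was detectable in these libraries.

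Cldn5, the dominant claudin of brain endothelium, had 0 reads in each of the 4 libraries, which allows up to 0.0597 to 0.0642 CPM per library. It was the only one of the 9 that did not pass the filter. Defining endothelial markers were also at or near 0. Cdh5, Emcn and Sox17 had 0 reads in all libraries, and Pecam1 reached at most 0.121 CPM. Of 15 endothelial genes listed, 5 passed the filter, and Kdr, Slco1a4 and Vwf, the 3 most abundant of them, were lower in the knockdown by 2.11-fold, 1.35-fold and 2.09-fold (edgeR adjusted p = 5.14e-19, 0.00154 and 0.00377). The call for Vwf was lost without control replicate 2 (adjusted p = 0.138) and without knockdown replicate 2 (adjusted p = 0.0975). The summed level of the list was 134 to 150 CPM in the controls and 81.4 to 87.6 CPM in the knockdown libraries. Nearly all of it came from Kdr (means 75.8 and 35.95 CPM) and Slco1a4 (63.6 and 47.0 CPM).

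To set the genes in order, levels were divided by the length of the longest coding transcript in GENCODE M21. In the controls the order of CPM per kilobase was Tjp1 at 81.1 ± 1.18, Cldn11 at 72.2 ± 1.13, Cldn12 at 30.2 ± 0.4335 and Cldn19 at 4.21 ± 0.0271 (SD, n = 2). Each of these 4 was separated from its neighbour by more than the spread of the libraries. Cldn10 (0.208 ± 0.00997), Cldn1 (0.139 ± 0.0469), Ocln (0.0899 ± 0.0674) and Marveld2 (0.0263 ± 0.00804) followed, and the libraries of Cldn1 and Ocln overlapped. In the knockdown libraries the order was Tjp1 at 104 ± 0.231, Cldn12 at 53.1 ± 0.339, Cldn11 at 40.2 ± 0.163 and Cldn19 at 0.719 ± 0.0285. Below them Cldn1 (0.162 ± 0.0521), Marveld2 (0.1175 ± 0.00852), Cldn10 (0.0861 ± 0.0815) and Ocln (0.0577 ± 0.0110) lay close together. The libraries of Cldn10 overlapped those of Cldn1, Marveld2 and Ocln. Both levels and order depend on the length used. By the shortest annotated coding transcript the control means were 1037 for Tjp1, 316 for Cldn12, 72.2 for Cldn11 and 19.0 for Cldn19. Among the low genes Ocln then came first at 0.934, before Cldn10 at 0.430, Cldn1 at 0.139 and Marveld2 at 0.0434. Cldn12 thus passed Cldn11, and Ocln passed Cldn10 and Cldn1, when the shortest transcripts were used. Those entries were only 359 nt long for Cldn12, 390 nt for Ocln and 551 nt for Tjp1. The longest were 3752, 4052 and 7049 nt. Which transcripts these cells used was not tested.

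**Figure D3:**
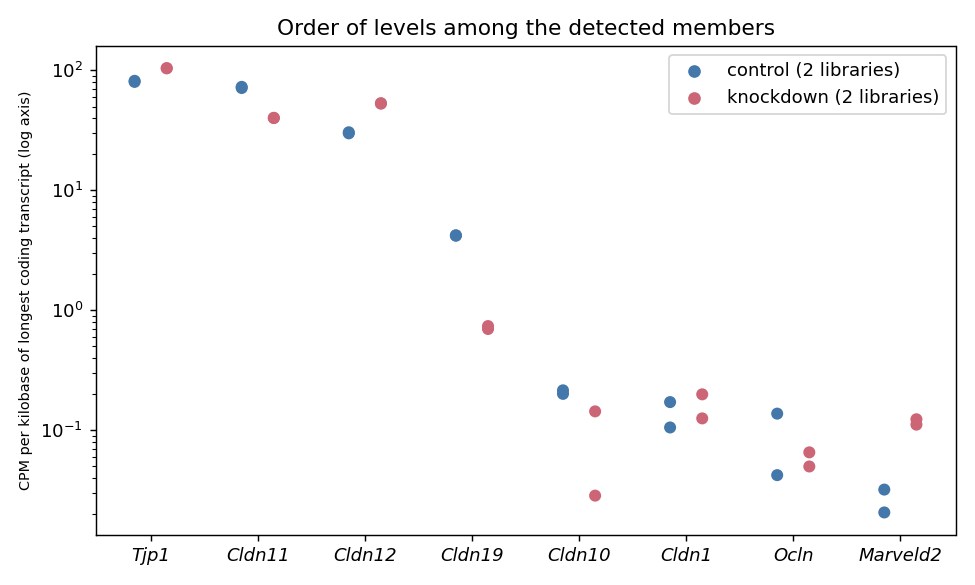
Levels of the 8 genes with reads, in CPM per kilobase of longest coding transcript on a log axis, in order of the control mean. Points are libraries, control in blue and knockdown in red. Tjp1, Cldn11, Cldn12 and Cldn19 stand above the other 4 in both groups, and Cldn12 passes Cldn11 in the knockdown libraries.

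Other junction genes, taken from whole lists of junction proteins, moved both ways and by small amounts. Of 62 in the table, 43 were tested and 22 were called (51.2%, against 46.7% of all genes). In the knockdown 10 were higher and 12 lower, with a median log2 change of -0.05, against 0.00 over all genes tested. The median size among called genes was 1.23-fold, and 1.21-fold over all called genes. Of the called genes, 2 passed 2-fold.

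None of 6 further claudins that passed the filter was called by edgeR. At an unadjusted p under 0.05 the count was also 0, and DESeq2, which gave 3 of them an adjusted p, called 0. Cldn2, the most abundant of them, stood at 4.14 and 3.70 CPM in the controls and 3.83 and 3.48 CPM in the knockdown libraries, which overlap. Cldn9, Cldn15, Cldn20, Cldn22 and Cldn23 had only 6 to 49 reads per library. Their log2 differences ran from -0.53 for Cldn15 to 0.79 for Cldn22, with SEs of 0.36 to 0.59. Sizeable differences could thus go uncalled in these genes. Cldnd1, a claudin-domain gene outside the claudin family proper, rose 1.32-fold from 105.5 ± 1.56 to 139 ± 0.949 CPM (SD, n = 2, edgeR adjusted p = 6.8e-12).

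Among transmembrane partners, 3 of 8 tested rose and 3 fell. Ildr2, of the angulin family that recruits tricellulin to three-cell contacts, rose 2.19-fold from 72.25 ± 6.08 to 158 ± 3.22 CPM (SD, n = 2, edgeR adjusted p = 9.86e-18). Crb1, a Crumbs polarity protein, rose 2.25-fold from a mean of 0.939 to 2.102 CPM (edgeR adjusted p = 0.000983), but its adjusted p was 0.0689 without control replicate 1. Its relative Crb2 fell 1.45-fold from 182 ± 4.55 to 125.5 ± 3.21 CPM (SD, n = 2, edgeR adjusted p = 2.64e-15). The immunoglobulin-like adhesion genes Jam3 and Cxadr fell 1.21-fold each (edgeR adjusted p = 2.71e-09 and 1.3e-05). Jam2 differed by only 0.08 on the log2 scale (SE 0.03, edgeR adjusted p = 0.0214). Its call was lost with scaling by library size alone (adjusted p = 0.238), without control replicate 2 (adjusted p = 0.204) and without knockdown replicate 1 (adjusted p = 0.123).

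Of 28 scaffold and polarity genes tested, 6 rose, 9 fell and 13 were not called, so that 53.6% were called against 46.7% of all genes. The scaffold gene Tjp3 was not called and averaged 2.60 ± 0.437 CPM without and 1.94 ± 0.0262 CPM with the knockdown (SD, n = 2). Whether its difference departs from that of Tjp1 was not tested. The membrane-associated guanylate kinases Magi2 and Magi1 went apart, with Magi2 rising by 0.47 (SE 0.04) and Magi1 falling by 0.33 (SE 0.03) on the log2 scale (edgeR adjusted p = 1.19e-11 and 7e-10). The angiomotins Amot and Amotl2, which bind Crumbs and Hippo pathway proteins, fell 1.37-fold and 1.33-fold (edgeR adjusted p = 6.33e-12 and 4.58e-14). Arhgef2, a guanine nucleotide exchange factor held at tight junctions by cingulin, fell 1.36-fold (edgeR adjusted p = 1.36e-11). Of the Par polarity complex, Pard6g fell 1.245-fold and the kinase gene Prkcz 1.48-fold (edgeR adjusted p = 3.31e-06 and 0.00125), the latter with an adjusted p of 0.149 without control replicate 1. Cgnl1, paracingulin, rose by 0.29 on the log2 scale (SE 0.07, edgeR adjusted p = 0.000978), with an adjusted p of 0.1 without control replicate 2.

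**Figure D4:**
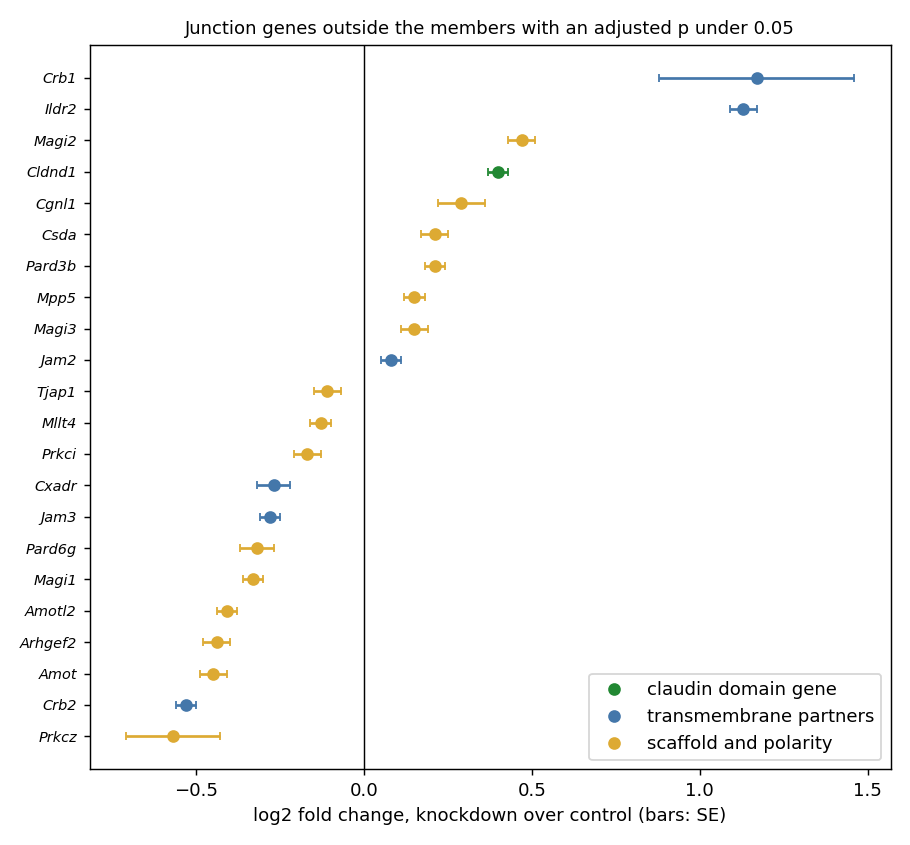
Log2 fold change of knockdown over control for the 22 junction genes outside the set of 9 that had an edgeR adjusted p under 0.05. Bars are SE and colours give the list. Crb1 and Ildr2 pass 2-fold, and the other 20 lie between -0.57 and 0.47.

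Markers of cell types, among them those known to carry these claudins, were read from the same fit. Over all genes tested, 23.5% were called higher and 23.3% lower. Of 13 tested myelin and mature oligodendrocyte genes, 10 fell and 3 were not called, with a median log2 change of -1.66 and a summed level of 777 to 840 CPM in the controls and 547 to 560 CPM in the knockdown libraries. Cnp, Mbp and Ugt8a, the most abundant, fell 1.185-fold, 4.52-fold and 3.46-fold (edgeR adjusted p = 9.22e-09, 0.0217 and 0.00492). Of 12 precursor genes, 10 fell and 2 were not called, with a median of -0.63, Olig1 falling 1.17-fold and Olig2 1.33-fold (edgeR adjusted p = 2.89e-08 and 1.15e-13), and Ptprz1 differing by -0.03 on the log2 scale (SE 0.03). In bulk RNA, fewer cells of a type and less RNA per cell cannot be told apart. The part of these cells in the values of Cldn11 and Cldn19 was not tested.

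Astrocyte genes rose in 6 of 11 cases, fell in 2 and were not called in 3, with a median log2 change of only 0.09. Their summed level was 5006 to 5067 CPM in the controls and 7466 to 7542 CPM in the knockdown libraries. Most of that difference came from Gfap, with means of 736 CPM in the controls and 2358 CPM in the knockdown libraries. Gfap rose 3.205-fold and Slc1a3 1.17-fold, and Aqp4 fell 1.15-fold (edgeR adjusted p = 2.95e-12, 8.05e-09 and 1.79e-07). Their part in the higher Cldn12 and Tjp1 levels was not tested. For the Schwann cell, the cell type from which Cldn19 is best known, 5 of 8 listed genes passed the filter, 1 rose and 2 fell, and the summed level was 33.7 and 34.6 CPM in the controls and 28.6 and 29.5 CPM in the knockdown libraries. Cdh19 fell 1.23-fold (edgeR adjusted p = 0.00148), and Prx and Egr2 lost their calls when DESeq2 was used (adjusted p = 0.0748 and 0.0908). Both also lost them without control replicate 1 or 2, Prx without knockdown replicate 1 and Egr2 without knockdown replicate 2.

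Several defining markers of epithelial cells, which carry Cldn1, Ocln and Marveld2, were at or near 0, but other genes of the same mixed list were not. Krt5 and Krt19 had 0 reads, and Epcam and Cdh1 reached at most 0.0642 and 0.0428 CPM. Of 15 epithelial, ependymal and choroid plexus genes, 5 passed the filter and 2 of these fell (40.0% called, against 46.7% of all genes). Folr1 fell from a mean of 9.50 to 7.19 CPM and Otx2 from 12.7 to 10.4 CPM (edgeR adjusted p = 0.00289 and 0.0102). The call of Otx2 was lost with DESeq2 (adjusted p = 0.0512) and without control replicate 1 or 2 or knockdown replicate 1. That of Folr1 was lost without control replicate 1. The ependymal gene Foxj1 averaged 333 ± 6.51 CPM without and 346 ± 9.35 CPM with the knockdown (SD, n = 2) and made up most of a summed level of 353 to 372 CPM. Of 6 mural genes tested, 4 fell and 1 rose, among them Acta2, Notch3 and Vtn, which fell 2.58-fold, 1.64-fold and 1.29-fold (edgeR adjusted p = 1.69e-26, 7.88e-19 and 9.61e-08), with a summed level of 703 to 712 CPM in the controls and 360 to 363 CPM in the knockdown libraries. Of 6 neuron genes, 3 rose and 1 fell, with Syt1 rising 1.38-fold and Dcx falling 1.31-fold (edgeR adjusted p = 1.62e-08 and 9.26e-09), at a summed level of 206 to 225 CPM throughout. The 7 microglial genes summed to at most 0.971 CPM.

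The genes whose libraries ran most like those of Cldn19 were sought among 9913 other genes of at least 10 CPM, by Euclidean distance of log2 CPM centred over the 4 libraries. The closest were Aim1 (distance 0.17), the adaptor gene Grb10 (0.21), Gm98 (0.34), which RefSeq lists as Myrf, the master regulator of myelin genes, the tetraspanin gene Tspan18 (0.37) and Enpp6 (0.39), an ectoenzyme of new oligodendrocytes. They were 4.79-fold to 7.08-fold lower in the knockdown, and Aim1 alone lay within 0.2. Cldn11 had closer company, with 97 genes within 0.2. The first 5 were Agrn, the heparan sulphate proteoglycan agrin (0.022), Pion (0.028), the chromatin remodeler gene Chd3 (0.046), the precursor transcription factor gene Sox8 (0.049) and Pcdh17 (0.057), 1.75-fold to 1.81-fold lower. With 4 libraries in 2 groups, this distance is set mainly by the size of the difference between groups.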

How the data were processed

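Polyadenylated RNA of 2 control and 2 knockdown libraries was sequenced from both ends after unstranded TruSeq library preparation. The authors deposited whole-number read counts per gene, made with HTSeq 0.6.1 and not normalized. TopHat 1.3.3, Bowtie 0.12.7 and build mm9 are listed in the submitters' processing notes, while the study's methods name mm10 and a later TopHat for read mapping. Annotation and strand setting: not given in the sources used here. Left out of library sizes were reads outside genes (20.1% to 22.2%), in several genes (0.427% to 0.434%) or with several alignments (10.7% to 11.2%). The authors' own comparison (means, fold changes, p-values) and term enrichment were not used.

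Counts were filtered with filterByExpr (minimum count 10, minimum total 15), scaled by TMM and fitted with edgeR 4.0.16 (R 4.3.3), robust quasi-likelihood, with knockdown against control over all 4 libraries and no covariate. Benjamini-Hochberg adjustment ran over 14090 genes. Each SE was derived from the log2 difference and the F value, and the code was tested on simulated data. The libraries of each group differed by more than counting noise (chi-square per degree of freedom 4.13 and 3.95). Alternatives were DESeq2 1.42.0, other scalings, no filter, a replicate block and leaving out each library. Named were all 9 genes, up to 8 called genes of each junction list with a mean of at least 1 CPM, the 3 most abundant tested genes of each marker list and the 5 genes most like Cldn19 and Cldn11. Cldn2, Cldn9, Cldn15, Cldn20, Cldn22, Cldn23, Tjp3 and defining markers at or near 0 were added after their values were seen. The genes and lists were chosen with earlier results of these data known.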

Additional observations from a re-analysis of the deposited data

Results flagged for a closer look

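Reads with more than 1 alignment, which no comparison used, were more frequent in both knockdown libraries (11.22% and 11.12% of listed reads) than in both controls (10.72% and 10.91%).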

How the results depend on the processing

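Cldn11, Cldn19, Cldn12 and Tjp1 kept the direction of their difference under every alternative run. Their groups were fully separated in these same 4 libraries, so the alternatives could hardly have reversed it and give no support. With DESeq2 4 members passed the threshold, against 5, but it gave Marveld2, Cldn10 and Ocln no adjusted p. Of the 13543 genes to which DESeq2 gave an adjusted p, 2608 were called higher and 2596 lower. As before, nothing is read from the member counts. Marveld2, at 8 control reads in all, lost its call without control replicate 1 or 2 or knockdown replicate 2, and Cldn10 gained one without knockdown replicate 1. Cldn1, at 0.22 on the log2 scale, stood at -0.08 without control replicate 2 and -0.15 without knockdown replicate 2. Among marker differences that were not called, 2 changed sign, P2ry12 to -0.08 without control replicate 1 (its other values reaching 0.74) and Ptprz1 to 0.02 without knockdown replicate 2, and the cause was not tested. The junction genes outside the set were called higher in 8 to 10 and lower in 10 to 11 cases when a library was left out, and all genes in 2455 to 2855 and 2435 to 2875. Labels share replicate numbers, and same-numbered libraries deviated together only weakly over all genes (correlation 0.055). That value cannot exclude a shared replicate effect in some genes. In both groups Mbp, Ugt8a and Enpp6 were higher in replicate 1 than in replicate 2, and Tubb3 was lower. Mbp stood at 114.9 and 92.19 CPM in the controls and 26.11 and 19.75 CPM in the knockdown libraries. Its edgeR adjusted p was 0.0217 without and 5.37e-24 with the replicate block. Whether the samples were paired is not known. With the replicate block 3404 genes were higher and 3377 lower, against 3309 and 3276, and the junction counts stayed at 10 and 12. Scaling by library size alone gave 2677 higher and 3964 lower genes, with the median of all genes at -0.035 on the log2 scale. Ocln and Cldn1 rest on 8 to 32 reads per library, and the 2 controls of Ocln had 28 and 8.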
